A study of Homo sapiens with 4 samples.

Results

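Synaptotagmins, SNARE proteins and their partners form the machinery that docks secretory vesicles and fuses them with a target membrane, and their genes were described here in human cells with and without REEP6 overexpression. The members were all rows of the deposited tables whose symbols belong to the synaptotagmin (SYT), synaptotagmin-like (SYTL), syntaxin (STX), syntaxin-binding (STXBP), VAMP, complexin (CPLX) and exocyst (EXOC) families, together with SNAP23, SNAP25, SNAP29, SNAP47, NSF, NAPA and NAPB. This gave 71 of the 51103 genes in the tables. Genes entered by name and not by their values, although the families were chosen with earlier results of these data known. In exocytosis, a syntaxin and a SNAP-25 family protein on the plasma membrane zip together with a VAMP on the vesicle. Tethers such as the exocyst bring the vesicle in, SM proteins (such as the STXBP2 and STXBP3 products) guide the assembly, complexins hold or promote the last step, synaptotagmins respond to calcium, and NSF with its adaptors takes the spent complexes apart.

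The study sequenced polyadenylated RNA from SCC-15, a cell line labelled as oral squamous cell carcinoma (OSCC). REEP6, a membrane protein of the endoplasmic reticulum, was overexpressed by lentivirus in 2 libraries (the REEP6 group), and 2 libraries came from the negative control of the same line (genotype NC, the control group). Nothing in the labels says what the control cells carried, whether the replicates were separate cultures, or whether the line was a single clone, so the tests below measure the spread between these libraries, which may be technical. The libraries held between 12856256 and 15208629 counts assigned to genes. REEP6 itself had 348 and 468 counts in the control libraries against 649 and 680 under overexpression, 1.76-fold higher (edgeR adjusted p 0.00119).

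The defining markers of squamous epithelium, the tissue named by the label, were at or near 0. None of 7 squamous epithelial markers (KRT5, KRT14, KRT17, KRT6A, TP63, DSG3 and SFN) exceeded 0.173 FPKM (fragments per kilobase of gene, scaled to library depth) in any library, and KRT6A and DSG3 had no count at all. Of 10 neuronal or neuroendocrine markers, 8 reached 1 FPKM in at least 2 libraries, among them the granins CHGA, CHGB and SCG2 and the vesicle protein gene SYP, while INSM1 had no count. The summed level of these 10 genes, 2 of which (SNAP25 and STX1A) are members, was 549 and 557 FPKM in the control libraries, against 343 and 314 FPKM under overexpression. Most of that sum was SCG2, at 363 and 371 FPKM against 188 and 172 FPKM. Of those tested, SNAP25, STX1A and SCG2 were lower, SYN1 was higher, and CHGA, CHGB, NCAM1 and SYP were not called, with log2 fold changes of 0.27, -0.16, 0.19 and -0.02. Of 6 fibroblast markers, LUM and PDGFRB were tested and both were lower, with the list summing to 9.83 and 10.7 FPKM in the controls and 3.35 and 3.89 FPKM with REEP6. LUM made up most of that sum in the controls (6.65 and 7.91 against 1.00 and 1.35 FPKM), while PDGFRA, under the filter, had 0.663 and 0.709 against 0.986 and 1.06 FPKM. Leukocyte markers summed to at most 3.05 FPKM in any library. Whether a change in the mix of cells took part in the results below was not tested, and in bulk RNA fewer cells of a type cannot be told apart from less RNA per cell.

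Most of the called members were lower with REEP6 overexpression. The calcium sensor gene SYT1 fell 2.34-fold, SNAP25 1.84-fold, the tomosyn gene STXBP5L 1.86-fold and the Rab27-binding gene SYTL4 1.93-fold. Complexin 2 (CPLX2) rose 1.53-fold, and the Golgi and endosomal syntaxin genes STX5 and STX10 rose 1.23-fold and 1.44-fold. The calls of STX5, STX10 and SYTL4 ended in 11 of 15, 7 of 15 and 2 of 14 alternative settings. Of the 71 members, 50 reached 1 FPKM in at least 2 libraries and were tested with edgeR's quasi-likelihood test at a Benjamini-Hochberg adjusted p of 0.05 over all 13077 genes tested. Of these 50, 12 were lower (24%) and 3 were higher (6%), where 14.2% of all genes tested were lower and 10.9% were higher. SYTL2 and SYTL4 were tested only through their control libraries; among the 48 members that reached 1 FPKM in both groups, 10 were lower (20.8%) and 3 higher (6.25%). Over all 50, the share called in either direction, 30%, was near the 25.1% of all genes. The role groups below are small, and their counts of calls were not tested against these shares. The median log2 fold change was -0.16 over the tested members and -0.01 over all genes tested. Scaling the libraries to equal FPKM sums, which moved the median of all genes to -0.14, gave 15 lower and 1 higher members. Without REEP6 replicate 1, 11 were lower and 1 higher.

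**Figure D1:**
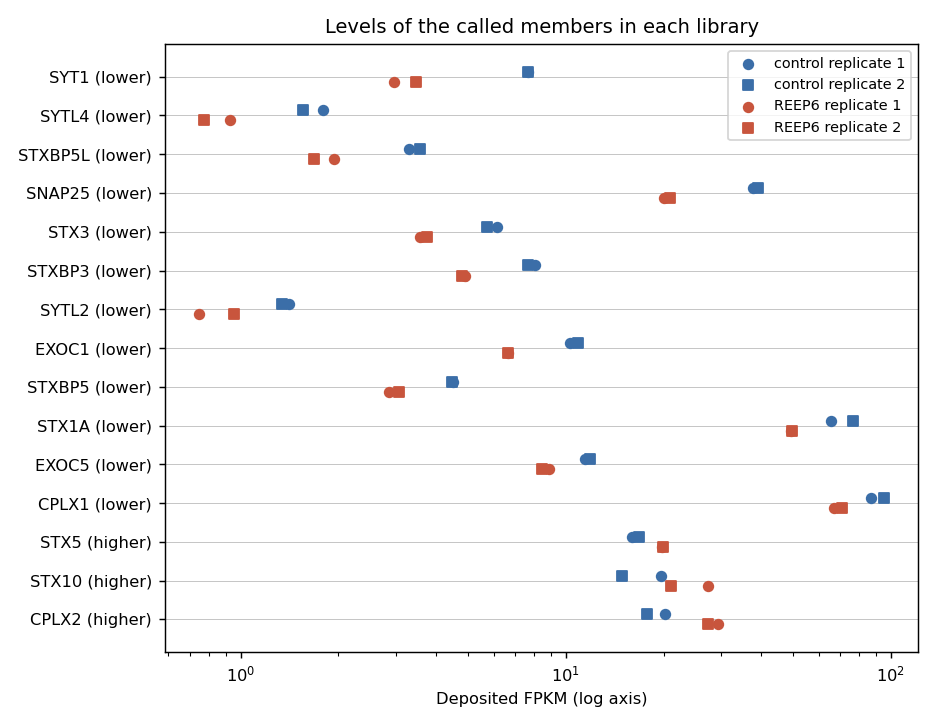
Deposited FPKM (log axis) of the 15 called members in each of the 4 libraries, blue for control and red for REEP6, with circles for replicate 1 and squares for replicate 2. In every gene shown the red and blue points do not overlap, from SYTL4 and SYTL2 near 1 FPKM to CPLX1 between 67.0 and 95.4 FPKM. The genes were called from these same libraries, so the gap is no separate support.

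**Figure D2:**
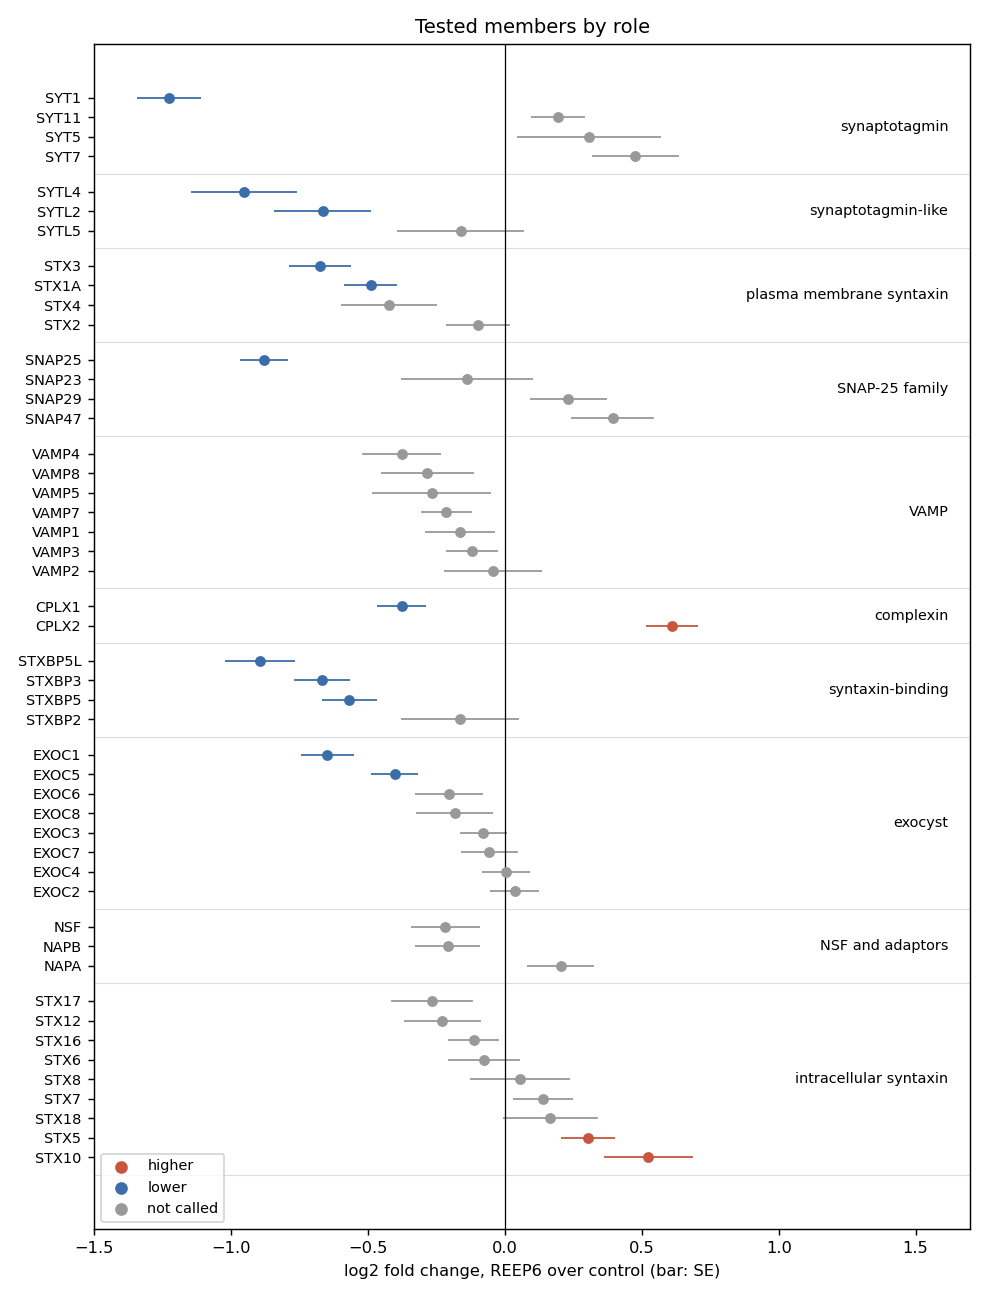
The log2 fold change of REEP6 over control for 48 of the 50 tested members, grouped by role, with the standard error (SE) as a bar. Lower calls (blue) lie among the synaptotagmins, synaptotagmin-like genes, plasma membrane syntaxins, SNAP-25 family, complexins, syntaxin-binding genes and exocyst, and higher calls (red) are CPLX2, STX5 and STX10.

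The stretch just before the RefSeq transcription start is shown for 4 called members: SYT1, which fell most, CPLX2, which rose most, STX1A, the most abundant syntaxin, and STXBP3, whose window holds a cyclic AMP response element. Each is the 250 bases upstream of the start in RefSeq (GRCh38.p14), read 5′ to 3′ on the gene's own strand. Capitals mark GC boxes (GGGCGG, or CCGCCC on the other strand) and the cyclic AMP response element TGACGTCA, which reads the same on both strands.
SYT1 (chr12:78864524-78864773, plus strand): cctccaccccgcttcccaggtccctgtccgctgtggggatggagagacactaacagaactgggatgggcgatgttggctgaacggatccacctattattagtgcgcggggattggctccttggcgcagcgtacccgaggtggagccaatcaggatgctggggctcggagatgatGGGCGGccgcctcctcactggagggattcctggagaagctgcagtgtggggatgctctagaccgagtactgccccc
CPLX2 (chr5:175796283-175796532, plus strand): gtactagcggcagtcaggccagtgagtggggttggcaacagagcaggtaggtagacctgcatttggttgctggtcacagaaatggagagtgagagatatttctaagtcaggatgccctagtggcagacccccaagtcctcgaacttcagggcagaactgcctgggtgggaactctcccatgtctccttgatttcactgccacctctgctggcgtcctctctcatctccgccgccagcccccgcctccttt
STX1A (chr7:73719670-73719919, minus strand): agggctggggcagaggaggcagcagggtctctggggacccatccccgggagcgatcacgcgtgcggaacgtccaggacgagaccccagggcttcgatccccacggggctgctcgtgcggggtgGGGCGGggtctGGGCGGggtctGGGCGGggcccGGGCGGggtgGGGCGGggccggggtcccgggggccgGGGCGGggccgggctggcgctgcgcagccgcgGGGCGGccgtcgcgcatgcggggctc
STXBP3 (chr1:108746424-108746673, plus strand): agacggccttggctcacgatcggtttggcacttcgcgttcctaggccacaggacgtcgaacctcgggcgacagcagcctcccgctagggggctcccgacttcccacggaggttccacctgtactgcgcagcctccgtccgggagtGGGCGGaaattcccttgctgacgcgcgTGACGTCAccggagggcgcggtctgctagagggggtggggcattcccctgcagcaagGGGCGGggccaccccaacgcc
The STX1A window holds 7 GC boxes and is 80.8% G or C, the STXBP3 window holds 2, the SYT1 window 1 and the CPLX2 window, at 56.8% G or C, none of these letters. At least 1 GC box was found in 42.6% of all 35116 RefSeq windows and in 64.0% of the 86 windows of 59 members. The full set was not limited to genes expressed here, and some members have more than 1 window. The difference between these shares was not tested. The full response element was found in 1.65% of all windows and in 2 of the 86. These are matches of letters, not measured binding, and a gene can start elsewhere in these cells. In GENCODE release 29 SYT1 begins at 78863993 and CPLX2 at 175796310. By that annotation the SYT1 window and most of the CPLX2 window lie inside the gene.

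Among the calcium sensors, SYT1 (chromosome 12, 78863993 to 79452008), the fast sensor of synaptic vesicle and granule release, stood at 7.67 and 7.63 FPKM in the controls and 2.95 and 3.46 FPKM with REEP6. Both REEP6 libraries lay far below both controls. The log2 fold change was -1.23 ± 0.116 (SE), with an edgeR adjusted p of 0.000299, and the gene passed in all 15 alternative settings. SYT11, a synaptotagmin that lacks calcium binding, was the most abundant of the family, at 10.6 and 11.6 FPKM in the controls and 11.9 and 13.0 FPKM with REEP6, and was not called (edgeR adjusted p 0.172). SYT7, the high-affinity sensor of slow release and lysosome exocytosis, had 1.89 and 1.84 FPKM against 2.65 and 2.45 FPKM. Its REEP6 libraries were both above the controls, but it just missed the threshold (log2 fold change 0.48 ± 0.159 SE, edgeR adjusted p 0.0541). SYT7 passed with the scaling of DESeq2 (edgeR adjusted p 0.0494) and with robust fitting (0.0465). It did not pass in 11 of the 14 alternative settings that tested it. SYT5, a granule synaptotagmin, had 0.684 and 1.02 FPKM against 1.02 and 1.07 FPKM and was not called either.

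SYT1 made up 34.4% and 32.9% of the summed synaptotagmin FPKM in the control libraries, against 14.7% and 16.3% under overexpression, and SYT11 went from 47.7% and 49.7% to 59.2% and 61.5%. SYT11 was thus the leading synaptotagmin transcript per length in all 4 libraries. A lower SYT1 level raises the SYT11 share by itself, so these shares are no separate support for a change in either gene. The other 13 of the 17 synaptotagmins did not pass the filter. SYT12 and SYT17 had between 40 and 88 counts per library. SYT2, SYT3, SYT4, SYT8, SYT13, SYT14, SYT15 and SYT16 had at most 10 counts in any library, and SYT6, SYT9 and SYT10 had none.

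Of the 5 synaptotagmin-like genes, whose products link Rab27-bearing vesicles to the plasma membrane, 3 were tested and 2 fell. The share lower over all genes tested was 14.2%. SYTL4 (granuphilin; chromosome X, 100674491 to 100732123) had 1.79 and 1.56 FPKM in the controls and 0.926 and 0.769 FPKM with REEP6 (log2 fold change -0.95 ± 0.194 SE, edgeR adjusted p 0.00775). SYTL2 (chromosome 11, 85694224 to 85811159) had 1.41 and 1.34 FPKM against 0.745 and 0.955 FPKM (log2 fold change -0.66 ± 0.177 SE, edgeR adjusted p 0.0234). Neither gene's groups overlapped, but each reached 1 FPKM only in control libraries, so a member of this kind had to differ in order to be tested. With no filter on low values both were still called. That fit gave smaller adjusted p values for other called members too (CPLX1 edgeR adjusted p 0.00292 against 0.0135), so it is no separate support. With limma on log2(FPKM + 1) neither passed (SYTL4 -0.53, limma adjusted p 0.0698; SYTL2 -0.36, limma adjusted p 0.16), and SYTL2 did not pass without REEP6 replicate 1 (edgeR adjusted p 0.143). SYTL4 shares 17.5% of its exon bases with SRPX2 on the opposite strand, which was itself lower (1.42 and 1.25 against 0.480 and 0.518 FPKM), and without a known strand setting their reads cannot be told apart. SYTL5 had 1.12 and 1.47 FPKM against 1.12 and 1.16 FPKM, with overlapping groups. SYTL1 and SYTL3 lay under the filter.

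Plasma membrane syntaxins anchor the SNARE complex on the target membrane. Of the 5 tested 2 fell, where 14.2% of all genes tested were lower. STX1A (chromosome 7, 73699206 to 73719672), the syntaxin of neuronal and endocrine release, was the most abundant, at 65.3 and 76.3 FPKM in the controls and 49.2 and 49.8 FPKM with REEP6 (log2 fold change -0.49 ± 0.0961 SE, edgeR adjusted p 0.00649). STX3 (chromosome 11, 59713456 to 59805882), the syntaxin of apical membranes in epithelia, had 6.13 and 5.74 FPKM against 3.55 and 3.74 FPKM (log2 fold change -0.67 ± 0.113 SE, edgeR adjusted p 0.00323). For both genes the REEP6 libraries lay close together and under both controls. STX1A shares 17.9% of its exon bases with BUD23 on the opposite strand, which was not called (24.6 and 21.1 against 22.8 and 20.5 FPKM).

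STX4, which serves basolateral and constitutive fusion, had 8.77 and 7.09 FPKM in the controls and 6.76 and 4.83 FPKM with REEP6. The groups did not overlap, and the gene was not called (log2 fold change -0.42 ± 0.175 SE, edgeR adjusted p 0.105), although it passed with equal FPKM sums (edgeR adjusted p 0.0438), with no filter (0.0404), without control replicate 2 (0.0357) and without REEP6 replicate 1 (0.0042). In 10 of the 15 alternative settings STX4 did not pass. STX2 overlapped between the groups, at 9.74 and 11.1 FPKM against 8.91 and 10.2 FPKM. STX11 and STX19 had at most 9 counts in any library. The share of STX1A in the summed FPKM of these syntaxins was 71.5% and 75.2% in the control libraries, against 70.6% and 70.8% under overexpression.

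The SNAP-25 family supplies a pair of helices to the SNARE complex. Of its 4 members 1 fell, where 14.2% of all genes tested were lower. SNAP25 (chromosome 20, 10218830 to 10307418), the form used with STX1A in regulated release, had 37.7 and 39.1 FPKM in the controls and 20.0 and 20.9 FPKM with REEP6. The groups were far apart relative to the spread within each (log2 fold change -0.88 ± 0.087 SE, edgeR adjusted p 0.000379), and SNAP25 passed in all 15 alternative settings. Its share of the family's summed FPKM was 81.7% and 81.9% in the control libraries, against 66.4% and 68.7% under overexpression. SNAP23, the general form, stood at 2.24 and 1.35 FPKM against 1.65 and 1.53 FPKM, with no difference beyond the spread between libraries.

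SNAP29, an adaptor of endosomal and autophagosomal fusion, had 3.41 and 3.65 FPKM in the controls and 4.18 and 3.96 FPKM with REEP6 (edgeR adjusted p 0.257). SNAP47, a less studied form, had 2.81 and 3.65 FPKM against 4.28 and 4.07 FPKM and was not called (log2 fold change 0.39 ± 0.151 SE, edgeR adjusted p 0.0852). It passed without control replicate 2, the library nearer to the REEP6 group (log2 fold change 0.62, edgeR adjusted p 0.0146), and narrowly with no filter (edgeR adjusted p 0.0497). In 11 of the 14 alternative settings that tested it, SNAP47 did not pass. SNAP25 was thus the only family member whose level was called.

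None of the 7 VAMP genes, the vesicle-side SNAREs, was called with edgeR, DESeq2 or limma. With 7 genes, a count of 0 called cannot be set apart from the 25.1% that edgeR called over all genes tested. An unadjusted edgeR p under 0.05 was found for 2 of them (VAMP4 and VAMP7). All 7 had a log2 fold change below 0, from -0.38 for VAMP4 to -0.04 for VAMP2. The median over all genes tested was -0.01. The sign of VAMP2 turned without control replicate 2 (0.31) and without REEP6 replicate 1 (0.08). VAMP3 (cellubrevin), the most abundant, had 35.6 and 39.8 FPKM in the controls and 32.8 and 35.4 FPKM with REEP6, and VAMP8 (endobrevin) had 21.1 and 16.3 FPKM against 15.6 and 14.5 FPKM. VAMP2 (synaptobrevin), the usual partner of SNAP25 and STX1A, had 8.93 and 13.4 FPKM against 9.66 and 11.7 FPKM, so the control libraries enclosed the REEP6 libraries. VAMP4, of the trans-Golgi network, had 4.66 and 5.52 FPKM against 4.01 and 3.69 FPKM (edgeR adjusted p 0.0807) and passed with equal FPKM sums (edgeR adjusted p 0.023) and without control replicate 1 (0.0382). In 11 of the 14 alternative settings that tested it, VAMP4 did not pass. VAMP1, VAMP5 and VAMP7 lay between 5.80 and 16.6 FPKM in all libraries.

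The complexins, small proteins that bind the assembled SNARE bundle, moved in opposite directions. CPLX1 (chromosome 4, 784957 to 826198) was the most abundant member of all, at 87.0 and 95.4 FPKM in the controls and 67.0 and 70.9 FPKM with REEP6 (log2 fold change -0.38 ± 0.088 SE, edgeR adjusted p 0.0135). CPLX2 (chromosome 5, 175796310 to 175884020) had 20.2 and 17.8 FPKM against 29.4 and 27.4 FPKM (log2 fold change 0.61 ± 0.0945 SE, edgeR adjusted p 0.00229). The groups overlapped for neither gene. Within a library the FPKM ratio of CPLX2 to CPLX1 was 0.232 and 0.186 in the control libraries, against 0.439 and 0.387 under overexpression, and CPLX2 went from 18.8% and 15.7% of complexin FPKM to 30.5% and 27.9%. This ratio does not depend on how the libraries are scaled. CPLX2 passed in all 15 alternative settings, while the CPLX1 call ended without control replicate 2 (edgeR adjusted p 0.0662) and without REEP6 replicate 1 (0.0781). CPLX3 and CPLX4, known from the retina, had no count.

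**Figure D3:**
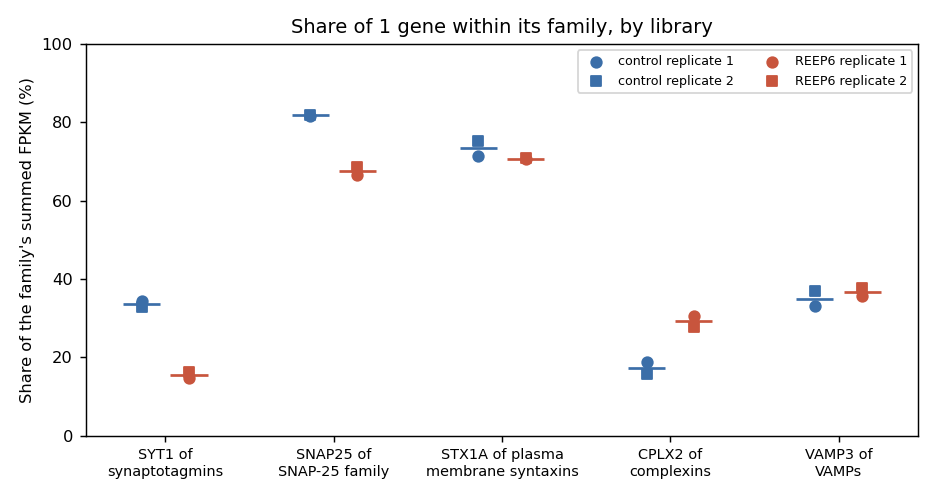
Share (%) of SYT1, SNAP25, STX1A, CPLX2 and VAMP3 in the summed FPKM of their families, 1 point per library, with a line at each group's mean. SYT1 and SNAP25 had lower shares and CPLX2 a higher share in both REEP6 libraries, while STX1A and VAMP3 stayed within 5 percentage points between all libraries. The shares come from the same libraries as the calls, so they are no separate support.

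Of the syntaxin-binding genes 5 of 7 were tested, and 3 fell, where 14.2% of all genes tested were lower. With 5 genes the difference was not tested. STXBP3 (Munc18-3; chromosome 1, 108746674 to 108809526), the SM protein that pairs with syntaxin 4, had 8.04 and 7.69 FPKM in the controls and 4.90 and 4.81 FPKM with REEP6 (log2 fold change -0.67 ± 0.102 SE, edgeR adjusted p 0.00217). The tomosyns compete with VAMPs for the plasma membrane SNAREs and restrain fusion. Both tomosyn genes fell: STXBP5 (chromosome 6, 147204425 to 147390476) went from 4.50 and 4.48 to 2.87 and 3.08 FPKM, and STXBP5L (chromosome 3, 120908072 to 121424761) from 3.30 and 3.56 to 1.94 and 1.68 FPKM. Their log2 fold changes were -0.57 ± 0.101 (SE, edgeR adjusted p 0.00406) and -0.90 ± 0.128 (SE, edgeR adjusted p 0.00164). For these 3 genes every REEP6 library was below every control, and each passed in all alternative settings in which it was tested. STXBP2 (Munc18-2) had 2.99 and 1.90 FPKM against 2.18 and 2.08 FPKM, with overlapping groups. STXBP4 and STXBP6 lay under the filter.

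The exocyst is an assembly of 8 subunits that tethers vesicles to the plasma membrane, and all 8 genes were tested. Of these, 2 fell and 6 were not called, where 14.2% of all genes tested were lower. EXOC1 (Sec3; chromosome 4, 55853616 to 55905034) had 10.3 and 10.9 FPKM in the controls and 6.65 and 6.64 FPKM with REEP6 (log2 fold change -0.65 ± 0.0973 SE, edgeR adjusted p 0.00197). EXOC5 (Sec10; chromosome 14, 57200507 to 57269008) had 11.5 and 11.9 FPKM against 8.89 and 8.45 FPKM (log2 fold change -0.40 ± 0.0858 SE, edgeR adjusted p 0.00935). Both showed a clear gap between the groups, though the EXOC5 call ended without REEP6 replicate 2 (edgeR adjusted p 0.069).

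The other exocyst subunits varied less. EXOC2, the most abundant, had 15.7 and 14.7 FPKM in the controls and 15.0 and 15.6 FPKM with REEP6, EXOC3 had 10.8 and 11.0 FPKM against 9.98 and 10.3 FPKM, and EXOC4 overlapped between the groups, with a log2 fold change of 0.00 ± 0.0871 (SE). EXOC6, EXOC7 and EXOC8 had log2 fold changes between -0.20 and -0.06. The subunits of 1 complex were thus not uniformly lower: EXOC1 fell 1.57-fold while EXOC2 and EXOC4 stayed within 1.03-fold. The difference between subunits was not tested.

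NSF, the ATPase that dissolves SNARE complexes, and its adaptors NAPA (alpha-SNAP) and NAPB (beta-SNAP) were not called with edgeR, DESeq2 or limma. An unadjusted edgeR p under 0.05 was found for 0 of the 3. With 3 genes, a count of 0 called cannot be set apart from the 25.1% that edgeR called over all genes tested. NSF had 6.36 and 7.75 FPKM in the controls and 5.98 and 5.95 FPKM with REEP6 (log2 fold change -0.22 ± 0.127 SE, edgeR adjusted p 0.236), and it can share reads with the near-identical pseudogene NSFP1. NAPB had 5.68 and 5.90 FPKM against 5.07 and 4.77 FPKM, and NAPA 4.60 and 4.18 FPKM against 5.08 and 4.83 FPKM. The adaptors thus differed in sign, each by less than 1.2-fold.

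Of the 9 syntaxins of internal membranes, all tested, 2 were higher and 7 were not called. With edgeR, DESeq2 and limma 0 of them were lower. Over all genes tested with edgeR 10.9% were higher and 14.2% lower. With 9 genes, a count of 0 lower cannot be set apart from that share. STX5 (chromosome 11, 62806897 to 62832088), which acts between the endoplasmic reticulum and the Golgi, had 16.0 and 16.8 FPKM in the controls and 19.7 and 19.9 FPKM with REEP6 (log2 fold change 0.30 ± 0.0981 SE, edgeR adjusted p 0.0483). STX10 (chromosome 19, 13144058 to 13150383), of the route from endosomes to the trans-Golgi network, had 19.7 and 14.9 FPKM against 27.5 and 21.1 FPKM (log2 fold change 0.52 ± 0.163 SE, edgeR adjusted p 0.042). The REEP6 libraries were above the controls in both, but by a narrow margin for STX10. Neither call was stable. STX5 did not pass in 11 of 15 alternative settings, DESeq2 among them (adjusted p 0.126), and STX10 did not pass in 7, with a log2 fold change of 0.31 without REEP6 replicate 1.

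STX16, also of the trans-Golgi network, was the most abundant of the uncalled internal syntaxins, at 21.6 and 24.3 FPKM in the controls and 20.7 and 21.0 FPKM with REEP6 (edgeR adjusted p 0.399). The others were STX6 (trans-Golgi network), STX7 and STX8 (late endosome), STX12 (recycling endosome), STX17 (autophagosome) and STX18 (endoplasmic reticulum). They lay between 2.41 and 6.52 FPKM in all libraries, with log2 fold changes from -0.27 for STX17 to 0.17 for STX18.

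Beyond these families, 95 further genes of vesicle traffic were in the tables, listed by function as other SNAREs, SM proteins, priming factors, Rab and Ral GTPases, exocyst relatives, Rab effectors, extended synaptotagmins and synaptic vesicle proteins. Of the 61 tested, 9 were higher and 8 lower, or 14.8% and 13.1%, near the 10.9% and 14.2% of all genes tested, with a median log2 fold change of 0.11. The largest difference was in RAB27B, the GTPase of secretory granules that SYTL2 and SYTL4 bind, which went from 4.65 and 5.10 FPKM in the controls to 1.43 and 1.16 FPKM with REEP6 (log2 fold change -1.88 ± 0.154 SE, edgeR adjusted p 0.000141). Its close relative RAB27A, at 2.45 to 2.68 FPKM in all libraries, was not called. MLPH (melanophilin), another Rab27 effector, fell from 30.7 and 31.5 to 22.2 and 25.4 FPKM, with a call that ended without REEP6 replicate 1 (edgeR adjusted p 0.183), without control replicate 2 (0.0505) and with limma at a pseudocount of 1 (adjusted p 0.054). RAB8B fell 1.52-fold, from 8.41 and 9.56 to 5.51 and 6.10 FPKM.

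Among SNARE partners outside the named families, the endoplasmic reticulum SNARE gene SEC22B fell 1.42-fold (7.35 and 8.62 against 5.57 and 5.48 FPKM), SCFD1, the SM protein that works with syntaxin 5, fell 1.33-fold, and NAPG (gamma-SNAP) fell 1.33-fold. The NAPG call ended without control replicate 2 (edgeR adjusted p 0.0824), without REEP6 replicate 1 (0.0674) and with limma at a pseudocount of 1 (adjusted p 0.0502). BNIP1, an endoplasmic reticulum SNARE gene, rose 1.44-fold, from 6.63 and 7.17 to 9.13 and 10.4 FPKM, but did not pass without control replicate 1 (edgeR adjusted p 0.0655), without REEP6 replicate 2 (0.134) or with equal FPKM sums (0.0697). ESYT1, an extended synaptotagmin that bridges endoplasmic reticulum and plasma membrane, rose from 17.5 and 17.8 to 23.8 and 22.9 FPKM. Of 7 tested synaptic vesicle proteins 4 were higher with edgeR and 2 with DESeq2, and 0 were lower with either. Over all 13077 genes tested, edgeR called 1422 higher and 1854 lower (10.9% and 14.2%). DESeq2 called 1186 higher and 1375 lower. With 7 genes, a count of 0 lower cannot be set apart from these shares. The higher genes included SYN1 (synapsin 1; 2.56 and 2.96 against 4.07 and 5.00 FPKM) and SYNGR1 (synaptogyrin 1; 6.79 and 7.36 against 9.40 and 9.44 FPKM). The SYN1 call ended without REEP6 replicate 2 (edgeR adjusted p 0.0777). SYP (synaptophysin) was not called, at 9.77 and 8.85 against 9.79 and 8.23 FPKM. The exocyst relative TNFAIP2 and the motor gene MYO5C were lower by 1.39-fold and higher by 1.52-fold. MYO5C did not pass without REEP6 replicate 1 (edgeR adjusted p 0.0571) or with limma at a pseudocount of 1 (adjusted p 0.11).

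**Figure D4:**
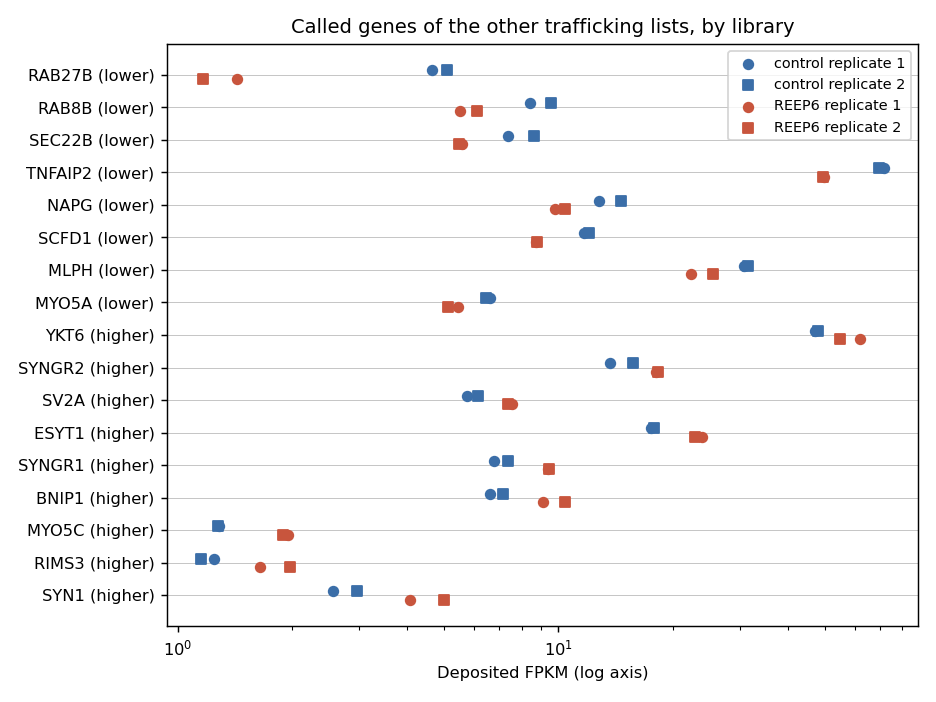
Deposited FPKM (log axis) of the 17 called genes among the other traffic genes in each library, colours and symbols for groups and replicates. RAB27B shows the widest gap between control and REEP6 libraries, and SYN1 and SYNGR1 lie higher in both REEP6 libraries.

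The calls among the members differed in how firmly they stood. Of the 15 called members, 9 passed in every alternative setting that tested them: SYT1, SNAP25, STX1A, STX3, STXBP3, STXBP5, STXBP5L, EXOC1 and CPLX2. The other 6, SYTL2, SYTL4, CPLX1, EXOC5, STX5 and STX10, each lost the call in at least 1 setting. None of the 15 changed sign. DESeq2 called 14 of the 15, and limma on log2(FPKM + 1) called 11.

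**Figure D5:**
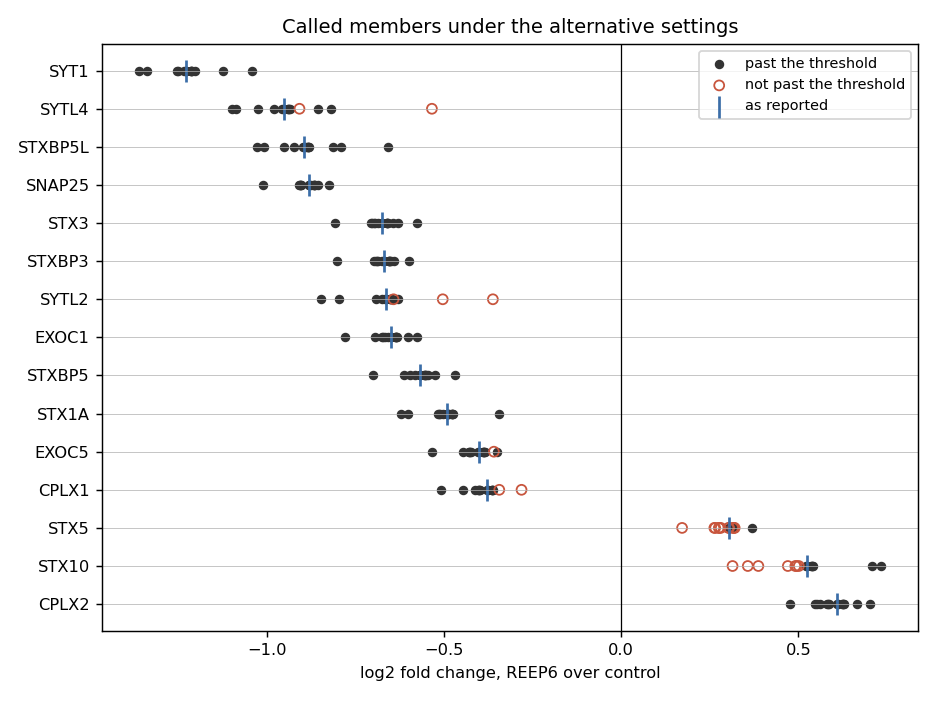
The log2 fold change of each called member under the alternative settings, filled where the adjusted p was below 0.05 and open where it was not, with a bar at the reported value. STX5 and STX10 carry the most open points, and no gene crosses 0.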

How the data were processed

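The authors deposited 1 table per library with raw counts and FPKM for 51103 Ensembl genes, per the file headers. The submitters' processing notes list HISAT2, HTSeq 0.13.5 and GRCh38 without roles. Annotation, strand setting and the handling of shared reads were not given in the sources used here. Count divided by FPKM and library total gave 1 length per gene in 100% of 29161 genes (relative tolerance 0.0001). Coordinates (1-based) are from GENCODE release 29, which matched all 51103 identifiers.

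Genes with at least 1 FPKM in at least 2 libraries (13077) entered a two-sided quasi-likelihood test in edgeR 4.0.16 (R 4.3.3): TMM scaling, 1 group term, 2 residual degrees of freedom, Benjamini-Hochberg adjustment. The common biological coefficient of variation was 9.35%. Levels are FPKM per library. An exact permutation of 2 against 2 libraries cannot go below p = 0.333, so none was used. An unchanged gene would likewise show no overlap between the groups with a probability of 0.333, so a lack of overlap alone is weak evidence. Counts for these 13077 genes were also simulated at edgeR's trended dispersion. A shift of 1.5-fold was given to 100 genes, 2-fold to 50 and 3-fold to 50. The test called 52%, 88% and 88% of these sets in turn, and 7 of its 147 calls fell on unshifted genes. In the data 25.1% of genes were called, a far larger share than was shifted here, and the adjusted p depends on that share. The simulated rates therefore do not give the recovery or the false calls of the test on these data.

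Alternatives used limma 3.58.1, DESeq2 1.42.0, other scalings and filters, a replicate block and fits without each library. Members and lists were chosen with earlier results of these data known. Values were given for all called members, the 2 most abundant per role, the 5 uncalled with the smallest p, members whose call changed, and the 12 called traffic genes with the smallest p. Uncalled values of 2 tested members are not reported here. Other values and the 4 promoters were chosen after the results were seen.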

Additional observations from a re-analysis of the deposited data

How the results depend on the processing

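Counts of called genes depended on scaling, tool and filter, and the cause was not tested beyond the smaller number of genes or samples in some settings. Equal FPKM sums gave 658 genes higher and 2826 lower, 1 member higher and 4 other traffic genes higher. Limma on log2(FPKM + 1) called 634 genes higher, 1 member higher, and 4 traffic genes higher and 5 lower; with a pseudocount of 0.1 it called 597 genes higher and 1233 lower, with the same 3 counts of 1, 4 and 5. A minimum of 5 FPKM left 936 genes, 1 member and 5 traffic genes higher, and no filter gave 16 traffic genes higher. Scaling by library totals left 1 member higher. Without each library in turn, genes higher ranged from 940 to 1495 and lower from 1272 to 1717, members higher from 1 to 3 and lower from 11 to 13, and traffic genes higher from 5 to 9 and lower from 5 to 7. The same numbers in the 2 groups pair the libraries by number only, with a correlation of 0.27 between the deviations of the pairs; with a replicate block 2957 genes were higher and 3062 lower, 7 members higher (15 lower) and 22 traffic genes higher. STX4 (adjusted p 0.000436) and SNAP47 (0.00263) were among the members uncalled in the main fit that passed with the block in edgeR. VAMP4, SYT7 and SYT11, also uncalled in the main fit, passed in 3, 3 and 1 alternative settings. The sign of the log2 fold change turned in at least 1 setting for 13 of the 35 uncalled members and for 0 of the 15 called, which lay away from 0 by selection. It turned for EXOC2 with equal FPKM sums (-0.10). It also turned without control replicate 2 for STX16 (from -0.20 to 0.0013 over the fits without each library) and SYTL5 (from -0.34 to 0.080). At this depth 16 members with a count stayed under the filter.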

Other observations

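Some genes of vesicle priming and calcium sensing lay under the filter of 1 FPKM and were tested only in the fit with no filter on low values, where 13.8% of 29161 genes were called. The genes named here were chosen after their values were seen. For called members that fit gave much smaller adjusted p values than the main fit. SNAP25 had an edgeR adjusted p of 1.21e-13 against 0.000379, and CPLX2 1.89e-08 against 0.00229. The adjusted p values of this section therefore cannot be set beside those of the main fit. CADPS, which primes dense-core granules for fusion, had 165 and 182 counts in the controls and 49 and 51 with REEP6, 3.18-fold lower (log2 fold change -1.67 ± 0.228 SE, edgeR adjusted p 3.76e-11), and was the 1 lower call among 30 such traffic genes, of which 5 were called higher. Of these 5 (DOC2A, DOC2B, RAB3B, MYO5B and SYN2), the calcium-binding DOC2B had 4 and 3 counts against 21 and 14 (edgeR adjusted p 0.00805), and DOC2A had 3 and 4 counts against 14 and 15 (edgeR adjusted p 0.0373). RAB3B, a vesicle GTPase, had 1 and 2 counts against 10 and 12 (edgeR adjusted p 0.0322). These counts are small.

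Of the 16 members under the filter that had a count, 1 was called in that fit. STXBP6 (amisyn), which binds SNARE proteins through a VAMP-like domain, had 58 and 66 counts in the controls and 99 and 114 with REEP6 (log2 fold change 0.90 ± 0.239 SE, edgeR adjusted p 0.00227), so it was higher where the tomosyn genes STXBP5 and STXBP5L were lower.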
